A study of Homo sapiens with 4 samples.

Results

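The 10 human Toll-like receptor genes, TLR1 to TLR10, were read in MOLM-14 cells, an established acute myeloid leukaemia cell line. Members were the rows of the deposited table whose platform gene symbol was TLR1 to TLR10. All 10 were found, each with 1 probe set, among 24241 named genes and 25582 probe sets. Of 4 cultures, 2 were kept in 10 nM rapamycin for 12 h before 6 h in 30 µM GSK621, and 2 had just the 6 h in 30 µM GSK621. Rapamycin inhibits the growth-controlling kinase complex mTORC1, and GSK621 activates AMPK, the kinase that senses low energy. All cultures were of the same line and all were given GSK621. Cultures left without GSK621, with or without rapamycin, were not analysed here, so what rapamycin does on its own and what it does to the GSK621 response cannot be told apart. The labels call the cultures biological replicates, and total RNA of each was measured on an Affymetrix whole-transcript array.

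Toll-like receptors are membrane proteins with a leucine-rich ligand-binding part and a cytoplasmic TIR (Toll/interleukin-1 receptor) domain. TLR2, usually paired with TLR1 or TLR6, recognises bacterial lipoproteins, TLR4 recognises lipopolysaccharide and TLR5 recognises flagellin, all at the cell surface. TLR3, TLR7, TLR8 and TLR9 sit in endosomes and recognise nucleic acids. TLR1, TLR2 and TLR4 to TLR9 can signal through the adaptor MYD88 to NF-κB, while TLR3 uses TICAM1, which TLR4 can use as well. Monocytes and their leukaemic counterparts are among the cells that carry several of these receptors.

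TLR2 had about doubled signal in cells given rapamycin before GSK621, and it was the receptor with the largest difference on these arrays. TLR1, its partner for triacylated lipoproteins, and TLR10, a relative of TLR1 with a still debated ligand, were also higher on both arrays with rapamycin, by smaller amounts. The endosomal receptors TLR3 and TLR7 had lower means with rapamycin, with overlapping arrays. With limma over all genes, 0 of the 10 receptors and 0 of all genes (0%) reached a Benjamini-Hochberg adjusted p under 0.05. Of the receptors TLR2 came nearest, with an adjusted p of 0.228. At an unadjusted p under 0.05 there were 3 receptors, TLR1, TLR2 and TLR10, all higher with rapamycin, where 8.51% of all genes passed in either direction, 4.31% higher and 4.2% lower. TLR2, TLR1 and TLR10 were also the 3 receptors whose arrays did not overlap between the groups, where 39.4% of all genes did not, 20.5% higher and 18.9% lower. When each array was left out in turn, TLR2 kept an unadjusted p under 0.05 each time, TLR1 did so only without replicate 1 of rapamycin then GSK621, and TLR10 in none of the 4 fits. Without GSK621 replicate 1, TLR3 and TLR5 also came under that threshold, as did TLR7 without replicate 2 of rapamycin then GSK621. All 10 receptors had a median log2 difference of 0.12, against 0.00 for all genes. The 6 receptors other than TLR1, TLR2, TLR6 and TLR10 had a median of 0.01. Between replicate arrays the median receptor level had an SD of 0.23, averaged over the groups. It is a spread of levels and not an error of the median difference.

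The promoter windows shown next are those of the receptors on which the results turn, TLR2 with the largest difference and TLR3 with the largest gap between replicates. They are RefSeq sequences of GRCh38.p14, from 250 bases before to 50 bases after the annotated start, written 5′ to 3′ on the strand of the gene. In TLR2 (chr4:153684030-153684329, plus strand) the capitals mark 2 matches to a form of the κB element bound by NF-κB, searched as GGGAA, any 3 bases and CC, and 1 match to AGGAAGT, the core bound by ETS factors such as PU.1. In TLR3 (chr4:186068906-186069205, plus strand) they mark a match to the core of the interferon response element, searched as GAAA, any 2 bases and GAAA. All of these matches lie on the reverse strand, so the capitals show the reverse complement of the letters searched.
TLR2: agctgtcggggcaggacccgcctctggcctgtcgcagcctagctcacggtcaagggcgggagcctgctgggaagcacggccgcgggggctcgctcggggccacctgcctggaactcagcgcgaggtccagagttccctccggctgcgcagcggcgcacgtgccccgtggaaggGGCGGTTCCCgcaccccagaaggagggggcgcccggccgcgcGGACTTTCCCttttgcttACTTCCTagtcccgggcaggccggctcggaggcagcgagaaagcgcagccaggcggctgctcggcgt
TLR3: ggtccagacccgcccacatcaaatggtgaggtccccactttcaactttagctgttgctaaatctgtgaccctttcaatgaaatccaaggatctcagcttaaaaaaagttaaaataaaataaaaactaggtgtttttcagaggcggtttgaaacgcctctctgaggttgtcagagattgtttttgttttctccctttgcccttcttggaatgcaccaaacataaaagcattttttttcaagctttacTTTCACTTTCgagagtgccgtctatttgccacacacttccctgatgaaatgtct

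Windows were at hand for 7 of the receptors and were not used for TLR1, TLR7 and TLR10. Both strands were searched, and no match overlapped another. The motifs were chosen after these sequences had been seen, so their counts in the receptor windows cannot be weighed against all windows. The TLR2 window holds 72.7% G and C with 33 CpG pairs, and the TLR3 window 40.3% with 5 CpG pairs. AGGAAGT was present in 4 of the 7 windows, those of TLR2, TLR4, TLR8 and TLR9, and in 8.24% of the 35116 RefSeq windows of the same length. Stretches of 60 bases around the first such match are shown for TLR4 (chr9:117704204-117704263, plus strand), TLR8 (chrX:12906582-12906641, plus strand) and TLR9 (chr3:52225621-52225680, minus strand), with the match in capitals.
TLR4: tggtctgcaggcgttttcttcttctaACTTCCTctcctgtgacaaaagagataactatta
TLR8: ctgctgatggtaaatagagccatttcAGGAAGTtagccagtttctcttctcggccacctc
TLR9: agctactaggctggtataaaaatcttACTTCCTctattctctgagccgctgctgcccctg

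The κB form was found in the TLR2 window alone of the 7, and in 6.9% of all windows. The interferon response core was found in the TLR3 window alone of the 7, and in 3.57% of all windows. The TLR9 stretch also holds TATAAA, the core of a TATA box, found in none of the other 6 receptor windows and in 11.5% of all windows. The match nearest to the annotated start began 17 bases before it in TLR2 (AGGAAGT), 4 bases before it in TLR3 (interferon response core), 12 bases before it in TLR8 and 9 bases before it in TLR9 (AGGAAGT in both). The matches describe letters in these windows, searched with motifs chosen after the sequences had been seen, and binding of a factor was not measured. Of the 4 receptors with AGGAAGT, TLR2 had a log2 difference between the treatments of 1.11, while TLR4, TLR8 and TLR9 had −0.02, 0.04 and 0.10.

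Values are the deposited expression values, taken as log2, and a difference is rapamycin then GSK621 minus GSK621 on that scale. Array medians lay between 5.37 and 5.43, and differences had a median standard error (SE) of 0.11. Having 2 arrays a group limits how precise any of them can be. Differences of all genes lay between −0.29 and 0.29 from the 5th to the 95th percentile, with 2 receptors above that span, TLR2 and TLR1, and 1 below it, TLR3. No detection calls were used. As a guide to dim values, 351 olfactory receptor genes, which blood cells generally do not express, had mean levels between 2.46 and 5.16 from the 5th to the 95th percentile. TLR1, TLR2, TLR6 and TLR9 lay above that span, where 13152 of all 24241 genes did, and the other 6 receptors lay inside it. Whether those 6 were above background is unknown, and since probe sets differ in brightness for the same amount of RNA, levels were not compared between receptors. Myeloid markers were checked against the label of the line. Of the 11 measured, 10 lay above the olfactory receptor span, against 13152 of all 24241 genes. ANPEP, the aminopeptidase CD13, lay inside it. Of the markers measured for other blood cells, those above the span were 3 of 5 for B cells, 1 of 6 for T cells, 2 of 5 for natural killer cells, 2 of 5 for plasmacytoid dendritic cells and 1 of 3 for erythroid cells.

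**Figure D1:**
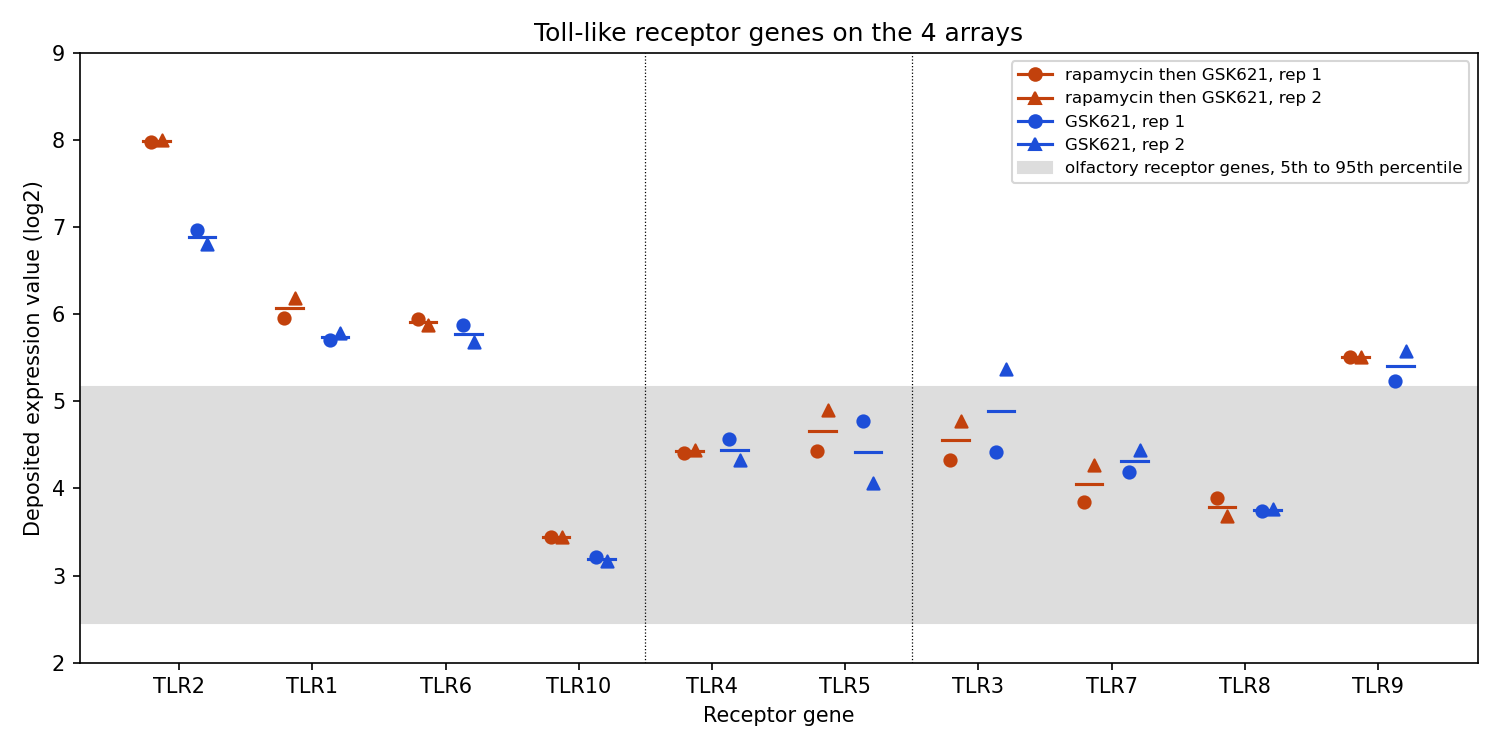
Deposited values, taken as log2 (y axis), of the 10 receptor genes (x axis) on each array. Rapamycin then GSK621 is in orange left of GSK621 in blue, with replicate 1 as circles and replicate 2 as triangles. Bars mark the group means, and grey the 5th to 95th percentile of olfactory receptor genes. TLR2 stands apart at 7.98 and 8.00 with rapamycin against 6.96 and 6.80 without it, while TLR10, TLR4, TLR5, TLR3, TLR7 and TLR8 have means inside the grey band.

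The first group of receptors is TLR2 with the members of its subfamily. TLR2 had values of 7.98 and 8.00 in cells given rapamycin then GSK621, against 6.96 and 6.80 in cells given GSK621. Both arrays with rapamycin were thus higher than both without it, and the gap between the groups was larger than the spread within either. The means were 7.99 ± 0.01 with rapamycin and 6.88 ± 0.11 without it (SD, n = 2 each), a 2.15-fold difference. In a culture, more cells that carry a receptor and more RNA per cell cannot be told apart. The log2 difference was 1.11 ± 0.10 (SE), with a 95% interval of 0.85 to 1.37 (limma, unadjusted p = 7.83e-05, adjusted p = 0.228). By unadjusted p TLR2 was at place 7 of the 24241 genes, and by size of the difference at place 8 from the top. The adjusted p came to 0.0135 with a variance trend and robust estimation, a setting in which 74 genes (0.305%) passed and TLR2 was the receptor among them, over a range of 0.0135 to 0.809 across the settings tried. Without moderation, with the spread of TLR2 alone, the unadjusted p was 0.00531 and the adjusted p 0.543 (ordinary least squares). Leaving out each array in turn gave differences of 1.03 to 1.19.

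TLR1 had values of 5.96 and 6.18 with rapamycin then GSK621, against 5.70 and 5.79 with GSK621. The groups did not overlap, and the nearest arrays of the groups were closer to each other than the rapamycin arrays were. The log2 difference was 0.33 ± 0.12, a 1.25-fold difference, with an interval of 0.03 to 0.62 (limma, unadjusted p = 0.0356, adjusted p = 0.575). TLR1 missed the unadjusted threshold without moderation. It came to 0.21 without replicate 2 of rapamycin then GSK621. TLR6, the partner of TLR2 for diacylated lipoproteins, had 5.95 and 5.87 with rapamycin then GSK621, against 5.88 and 5.68 with GSK621. These arrays overlapped, and the difference of 0.13 ± 0.11 had an interval of −0.15 to 0.42 (limma, adjusted p = 0.785). It came to 0.0318 without GSK621 replicate 2 and to 0.23 without GSK621 replicate 1.

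TLR10 had a value of 3.44 on both arrays with rapamycin then GSK621, against 3.21 and 3.17 with GSK621. The groups did not overlap, and the rapamycin arrays held the same deposited value to the last digit, as was so for 16 genes in that group. The difference was 0.24 ± 0.09 with an interval of 0.01 to 0.48 (limma, unadjusted p = 0.0414, adjusted p = 0.584). TLR10 missed the unadjusted threshold with each array centred, with a variance trend and robust estimation and with the replicate number as a block, besides the fits with an array left out. Of the olfactory receptor genes, 43.9% were dimmer than TLR10. TLR10, TLR1 and TLR6 follow each other on chromosome 4 with no other protein-coding gene of the RefSeq annotation between them. All 3 had positive differences, where 12405 of all 24241 genes did. The sequences of these 3 receptors are closely related, and whether each probe set reads its own gene alone was not tested.

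The other surface receptors are TLR4 and TLR5. TLR4 had 4.41 and 4.44 with rapamycin then GSK621, against 4.57 and 4.32 with GSK621. Both arrays with rapamycin lay between those without it, and the difference was −0.02 ± 0.12, with an interval of −0.31 to 0.28 (limma, adjusted p = 0.979). TLR5 had 4.43 and 4.90 with rapamycin then GSK621, against 4.78 and 4.06 with GSK621. Replicates of TLR5 differed by more than the group means in both groups, and the difference of 0.24 ± 0.28 had an interval of −0.45 to 0.94 (limma, adjusted p = 0.848). It came to −0.11 without GSK621 replicate 2. The 6 surface receptors, TLR10 among them, had a median difference of 0.24 with 5 positive, and the 4 endosomal receptors a median of −0.11 with 2 positive. Of all 24241 genes, 12405 had a positive difference. The signs of TLR3, TLR4, TLR5, TLR8 and TLR9 each turned in a fit with 1 array left out.

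Of the endosomal receptors, TLR3, which binds double-stranded RNA, had 4.33 and 4.78 with rapamycin then GSK621, against 4.42 and 5.37 with GSK621. Arrays overlapped, with the array of GSK621 replicate 2 highest, and the difference of −0.34 ± 0.33 had an interval of −1.18 to 0.50 (limma, adjusted p = 0.818). It came to 0.14 without that array. TLR7, a receptor for single-stranded RNA, had 3.84 and 4.27 with rapamycin then GSK621, against 4.19 and 4.44 with GSK621. These arrays overlapped as well, with a difference of −0.26 ± 0.18 and an interval of −0.70 to 0.18 (limma, adjusted p = 0.731). Leaving out each array in turn moved the TLR7 difference between −0.47 and −0.05.

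TLR8, the other receptor for single-stranded RNA, had 3.89 and 3.69 with rapamycin then GSK621, against 3.74 and 3.76 with GSK621. Both GSK621 arrays lay between the rapamycin arrays, and the difference was 0.04 ± 0.11 with an interval of −0.24 to 0.31 (limma, adjusted p = 0.951). TLR7 and TLR8 are neighbouring genes on the X chromosome. TLR8-AS1, a non-coding gene that the RefSeq annotation places across TLR8, has a probe set of its own with a difference of 0.12 ± 0.13. TLR9, which recognises DNA with unmethylated CpG, had 5.51 on both arrays with rapamycin then GSK621, against 5.24 and 5.57 with GSK621. The rapamycin arrays of TLR9 lay between the others, and the difference was 0.10 ± 0.14 with an interval of −0.24 to 0.44 (limma, adjusted p = 0.874). The intervals of the 7 receptors that span 0 reach 0.31 or further to at least 1 side, so they do not show equal levels.

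**Figure D2:**
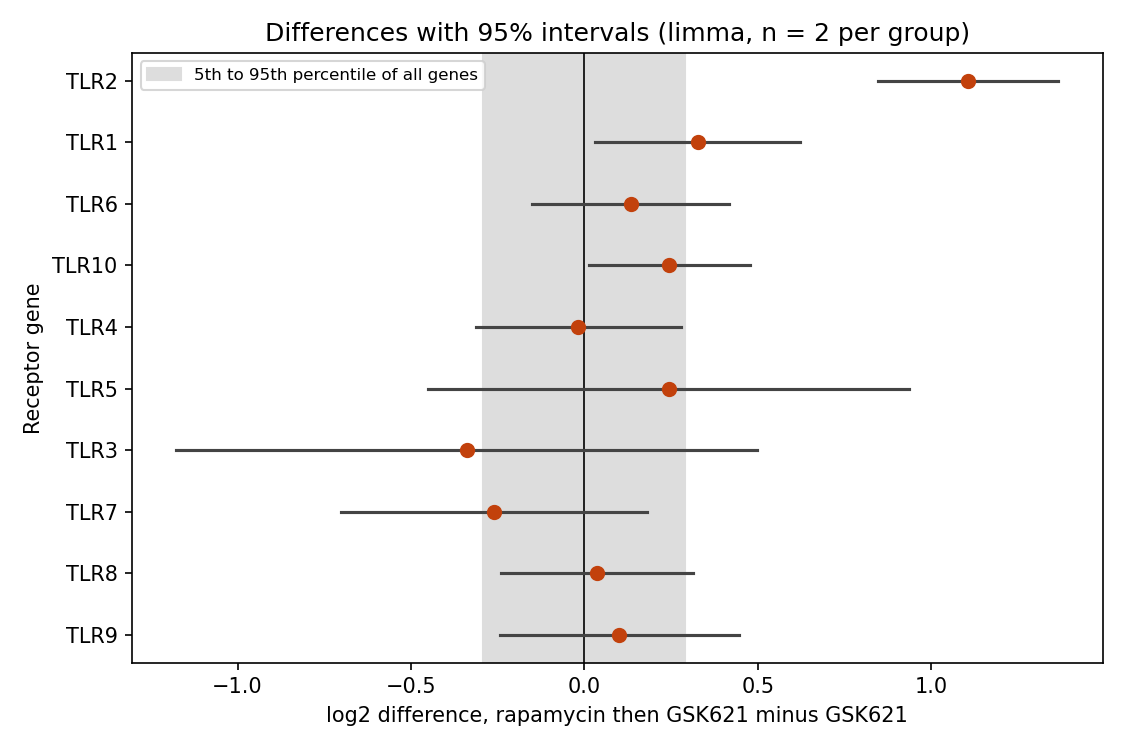
Log2 difference of each receptor, rapamycin then GSK621 minus GSK621 (x axis), as points with 95% intervals from limma (lines, n = 2 per group), and in grey the 5th to 95th percentile of the differences of all genes. The interval of TLR2, from 0.85 to 1.37, lies wholly to the right of the grey band, those of TLR1 and TLR10 start at 0.03 and 0.01, and the other 7 span 0.

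Replicates differed for some receptors in both groups. TLR3 was higher in replicate 2 than in replicate 1 by 0.45 in cells given rapamycin then GSK621 and by 0.95 in cells given GSK621. TLR7 was higher in replicate 2 by 0.43 with rapamycin then GSK621 and by 0.24 with GSK621, and TLR1 by 0.23 and 0.08. All 25 measured interferon-stimulated genes of a list of 27 were higher in replicate 2 in both groups, with a median of 0.27 with rapamycin then GSK621 and 0.26 with GSK621, where 25.8% of all genes were. The mean level of that list was 9.88 and 10.19 with rapamycin then GSK621, against 9.97 and 10.27 with GSK621, in the order of replicates 1 and 2. Between the treatments 0 of these 25 genes had an unadjusted p under 0.05, against 8.51% of all genes. The default fit counts the difference between replicates as spread, which raises p for genes that carry it. The list had a median difference of −0.08, with 6 positive and 19 negative, where 12405 of all 24241 genes were positive. Its smallest p values belonged to IFIT2, an antiviral protein (−0.24 ± 0.15), OASL (−0.22 ± 0.16), HERC6 (−0.23 ± 0.17) and IFIT1 (−0.26 ± 0.23). IFIT2 came to −0.0608 without replicate 1 of rapamycin then GSK621, and without GSK621 replicate 2 OASL came to −0.0368 and HERC6 to −0.0445. TLR2 differed between replicates by 0.02 with rapamycin then GSK621 and by −0.16 with GSK621, replicate 2 minus replicate 1. Within each replicate number, TLR3 and TLR7 were both lower with rapamycin. With the replicate number as a block, their unadjusted p values were 0.0819 and 0.0624, against 0.351 and 0.193 without it (limma). Beyond this block fit, the part of the replicate difference in the values of TLR3 and TLR7 was not tested.

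**Figure D3:**
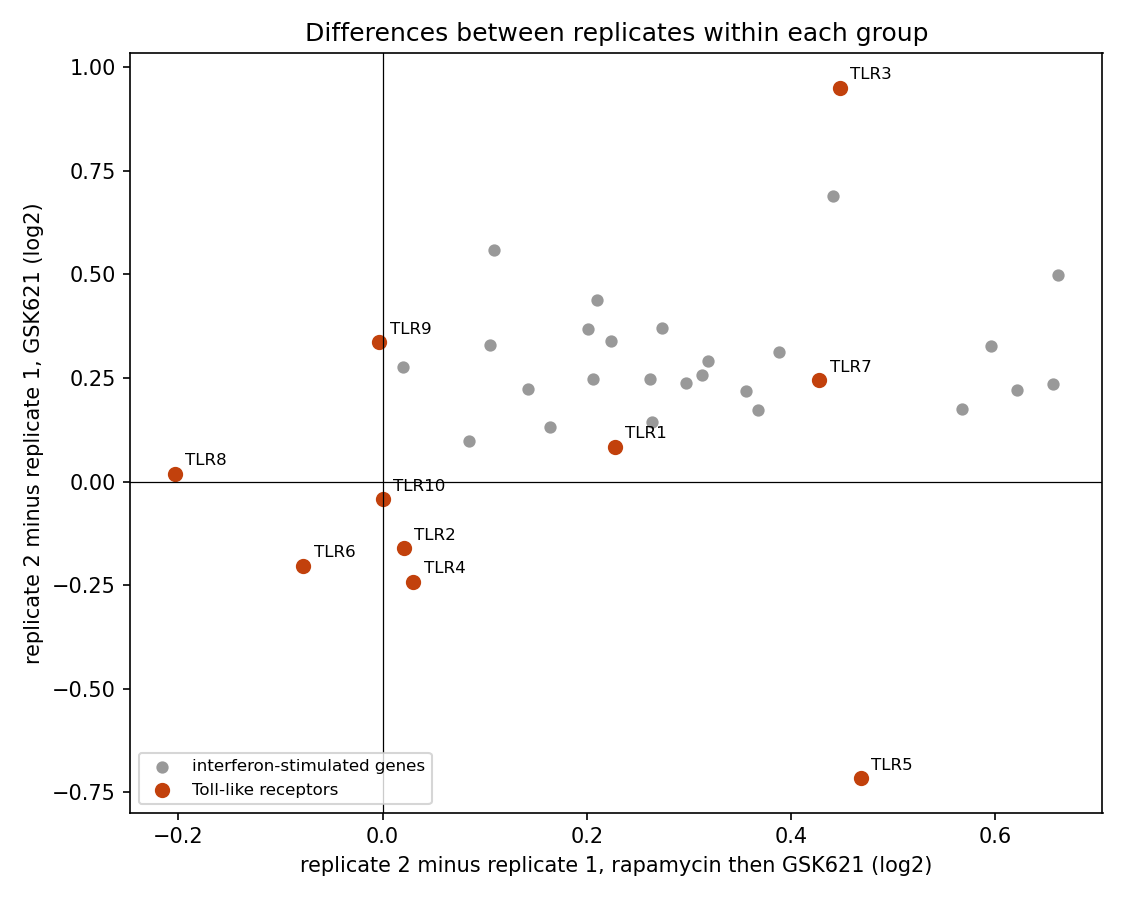
Replicate 2 minus replicate 1 (log2) within rapamycin then GSK621 (x axis) and within GSK621 (y axis) for the 10 receptors in orange and 25 interferon-stimulated genes in grey. All grey points and TLR1, TLR3 and TLR7 lie in the upper right, above 0 on both axes, and TLR5 lies at 0.47 and −0.72, with opposite signs in the groups.

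Co-receptors and chaperones bring ligand to the receptors or let them fold and leave the endoplasmic reticulum. Of 13 genes 1 had an unadjusted p under 0.05, CD180, a TLR4-like surface protein of myeloid and B cells, where 8.51% of all genes did. CD180 had 8.17 and 8.13 with rapamycin then GSK621, against 7.95 and 7.84 with GSK621, without overlap. Its difference was 0.26 ± 0.10 (limma, adjusted p = 0.584). It missed the unadjusted threshold after quantile normalization, with the replicate number as a block and in each fit with an array left out. CD14, which hands lipopolysaccharide to TLR4, had 3.79 and 3.47 with rapamycin then GSK621, against 3.78 and 3.73 with GSK621. LY96, the MD-2 protein that holds lipopolysaccharide on TLR4, had 2.84 and 3.29 with rapamycin then GSK621, against 2.84 and 3.03 with GSK621. Both overlapped between the groups and lay inside the olfactory receptor span, as TLR4 did. UNC93B1, which escorts the nucleic acid receptors to endosomes, had a difference of 0.13 ± 0.09. Its arrays did not overlap, at 9.44 and 9.38 with rapamycin then GSK621, against 9.25 and 9.31 with GSK621. The folding factors HSP90B1 and CNPY3 had −0.12 ± 0.10 and 0.17 ± 0.11, the endosomal protease CTSS 0.16 ± 0.09 and the lipid receptor CD36 0.18 ± 0.11. The median of the list was 0.13, with 9 positive differences of 13, where 12405 of all 24241 genes had a positive difference.

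Adaptors carry the signal from the TIR domain, and of 6 measured genes of a list of 8, 0 had an unadjusted p under 0.05, against 8.51% of all genes (limma, smallest adjusted p = 0.637). MYD88 had 10.06 and 10.18 with rapamycin then GSK621, against 10.04 and 10.15 with GSK621, with arrays interleaved. Its difference of 0.02 ± 0.10 and those of TIRAP, the bridge from TLR2 and TLR4 to MYD88 (0.01 ± 0.12), TICAM1 (0.11 ± 0.16) and SARM1 (−0.03 ± 0.17) all lay within their errors. TASL, the adaptor that links endosomal receptors to IRF5, had 0.24 ± 0.11 without overlap.

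Signalling enzymes and ubiquitin ligases had 1 gene of 17 at an unadjusted p under 0.05, against 8.51% of all genes. It was IKBKB, the kinase that marks the NF-κB inhibitor for decay. IKBKB had 8.41 and 8.49 with rapamycin then GSK621, against 8.11 and 8.24 with GSK621, and a difference of 0.28 ± 0.10 (limma, adjusted p = 0.579). It stayed under that threshold in 1 of the 4 fits with an array left out, without GSK621 replicate 2, and missed it with each array centred and without moderation. IRAK1, a kinase recruited by MYD88, had 0.04 ± 0.09, the ubiquitin ligase TRAF6 −0.10 ± 0.09, and TBK1, which phosphorylates IRF3, −0.20 ± 0.10. TRAF3 had −0.17 ± 0.10 and TAB3 −0.15 ± 0.10. The list had 7 positive differences and a median of −0.01.

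Among the transcription factors at the end of the pathway, 0 of 10 had an unadjusted p under 0.05, against 8.51% of all genes, and the median was −0.04. The NF-κB subunits NFKB1, NFKB2, RELA and REL had −0.09 ± 0.10, −0.12 ± 0.09, −0.03 ± 0.11 and 0.08 ± 0.09. The interferon regulatory factors IRF3, IRF5 and IRF7 had −0.04 ± 0.14, 0.06 ± 0.11 and 0.12 ± 0.15. Inhibitors of the pathway had 0 of 15 genes at that threshold and a median of 0.03. NFKBIE, an inhibitor that binds NF-κB, had 0.29 ± 0.12, and NFKBIA 0.09 ± 0.09. The ribonuclease ZC3H12A had 0.22 ± 0.11, the receptor SIGIRR 0.14 ± 0.10 and the ubiquitin-editing enzyme TNFAIP3 −0.13 ± 0.10. From co-receptors to inhibitors, 2 of 61 measured genes had an unadjusted p under 0.05, against 8.51% of all genes, with 31 positive and 30 negative differences.

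**Figure D4:**
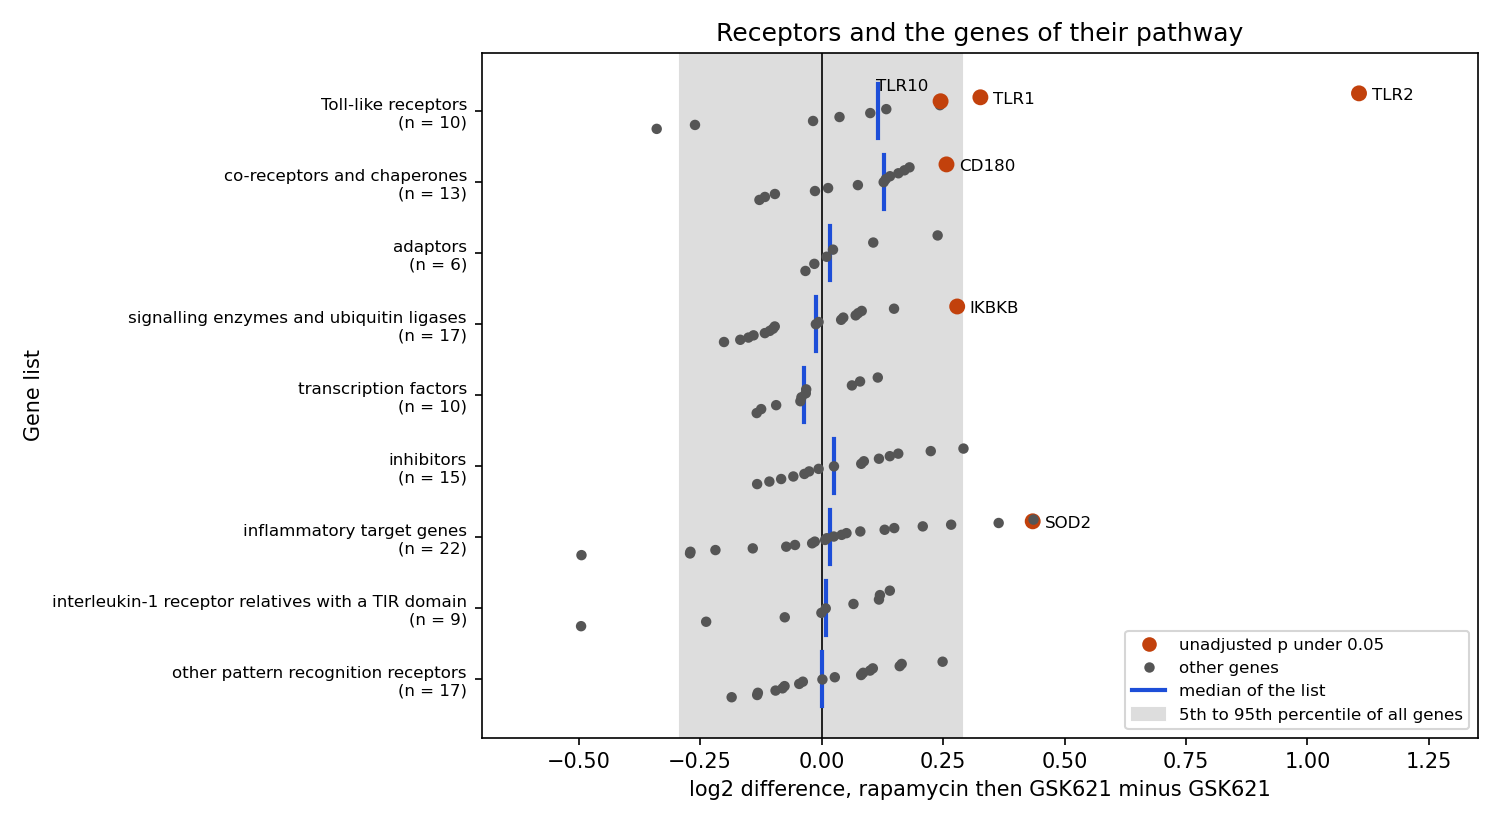
Log2 differences, rapamycin then GSK621 minus GSK621 (x axis), of the genes of 9 lists (y axis), each point a gene, with blue bars at list medians, the 5th to 95th percentile of all genes in grey, and genes at an unadjusted p under 0.05 in orange with their names. TLR2 at 1.11 lies far to the right of every other gene shown, and the medians of the lists run from −0.04 to 0.13.

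Inflammatory genes that the receptors can switch on had 1 of 22 measured members at an unadjusted p under 0.05, against 8.51% of all genes. It was SOD2, the mitochondrial superoxide dismutase. SOD2 had 9.94 and 10.15 with rapamycin then GSK621, against 9.54 and 9.68 with GSK621, without overlap. Its difference was 0.43 ± 0.12 (limma, unadjusted p = 0.0128, adjusted p = 0.541). It missed the threshold without moderation, without replicate 2 of rapamycin then GSK621 and without GSK621 replicate 1. The chemokine CCL3 had 0.36 ± 0.18, the chemokine CXCL8 −0.49 ± 0.27 with overlapping arrays, and the prostaglandin synthase PTGS2 −0.22 ± 0.13. With 1 array left out, CCL3 came as low as 0.17, without GSK621 replicate 1, and CXCL8 came to −0.16 without GSK621 replicate 2. The list had a median of 0.02 with 13 positive differences. The interleukin-1 receptor relatives, which share the TIR domain, had 0 of 9 genes at that threshold and a median of 0.01. IL18R1 had 4.99 and 5.23 with rapamycin then GSK621, against 5.33 and 5.88 with GSK621, a difference of −0.50 ± 0.20 (limma, unadjusted p = 0.0552). It came to −0.22 without GSK621 replicate 2, and with the replicate number as a block it came under the threshold, as it did with a variance trend, with protein-coding genes alone and without GSK621 replicate 1. Its co-receptor IL18RAP had −0.24 ± 0.15, and IL1RAPL1 of the same list had 0.12 ± 0.09. Other pattern recognition receptors had 0 of 17 genes at that threshold and a median of 0.00. The inflammasome sensor NLRP3 had 0.16 ± 0.09, the peptidoglycan sensor NOD1 0.16 ± 0.10, the lectin CLEC4E 0.25 ± 0.18 and the formyl peptide receptor FPR2 −0.19 ± 0.10. CLEC4E came to 0.0114 without GSK621 replicate 2.

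Myeloid markers were read beside TLR2. Of the 11 measured, 2 had an unadjusted p under 0.05, where 8.51% of all genes did, 4.31% higher. Both were higher with rapamycin, the granulocyte colony-stimulating factor receptor CSF3R (0.43 ± 0.10) and the receptor kinase FLT3 (0.34 ± 0.09). FLT3 missed the threshold without replicate 1 of rapamycin then GSK621, at 0.33. ANPEP had −0.29 ± 0.12 and the granule enzyme MPO −0.23 ± 0.10. The mean log2 level of the list was 8.48 and 8.45 with rapamycin then GSK621, against 8.40 and 8.36 with GSK621. The list had a median difference of 0.12, with 7 positive and 4 negative, and its part in the TLR2 value was not tested. Of the markers of other blood cells, 0 of 5 for B cells, 0 of 6 for T cells and 0 of 3 for erythroid cells had an unadjusted p under 0.05, with medians of −0.03, 0.04 and 0.22. Natural killer cell markers had 1 of 5, lower with rapamycin, and a median of −0.04, and plasmacytoid dendritic cell markers had 1 of 5, higher with rapamycin, and a median of 0.08.

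The genes whose 4 values, centred on the mean of each gene, lay closest to those of TLR2 were DUX4, OCSTAMP, LINC01255, MIR221 and PRAM1. Their Euclidean distances over the 4 arrays ran from 0.220 to 0.274. OCSTAMP, which takes part in the fusion of osteoclasts, had a distance of 0.258 and a log2 difference of 1.16 ± 0.11. PRAM1, a myeloid adaptor, had a distance of 0.274 and a difference of 0.95 ± 0.10, and the microRNA gene MIR221 a distance of 0.268 and a difference of 1.04 ± 0.11. LINC01255 (1.16 ± 0.14) and DUX4 (0.91 ± 0.10) had means inside the olfactory receptor span, and DUX4 has many almost identical copies in the genome, which leaves its reading uncertain. TLR1, the nearest of the other receptors, had a distance of 0.812 and was at place 739 of all genes. With 4 arrays in 2 groups, this distance is small for any gene with a group difference of like size and replicates close together.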

How the data were processed

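Total RNA of 4 MOLM-14 cultures was labelled for Affymetrix whole-transcript arrays, per the labels' protocols. For every array the authors deposited log2 values, with a single value for each gene-level probe set. R 2.15.3 and Partek are named, per the submitters' processing notes, without their roles. How background, normalization and probe summary were handled is not given in the sources used here, nor is the log base, which was taken as log2 from the range of 1.84 to 13.28. Groups and replicate numbers came from the sample titles. Of 25582 probe sets, 24244 carried 1 symbol, 0 several and 1338 none, from the platform annotation with names updated through RefSeq gene IDs. The probe set with the highest mean stood for a gene. Values were used with no filter.

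Rapamycin then GSK621 minus GSK621 was fitted over 24241 genes by limma 3.58.1 (lmFit, eBayes; R 4.3.3) with 2 residual and 3.39 prior degrees of freedom. Tests were two-sided, and p-values were adjusted by Benjamini-Hochberg across the whole table. The method was tested on simulated data. An unadjusted p under 0.05 serves here to count members beside the share of all genes. Receptors, 16 gene lists, tests and motifs were chosen with earlier results of these data known, and the motifs after the sequences had been seen. Named are the 10 receptors, 16 measured genes of the pathway fixed by name, up to 4 genes of smallest p per list and the 5 genes nearest to TLR2. TICAM2 and IRAK4 were also fixed by name but were not found among the genes analysed. Markers of other blood cells are given as counts, so their genes of smallest p are not named, and TLR8-AS1 was added outside the rule. Alternatives were quantile normalization, centring, a dim-gene filter, other variance models, the replicate number as a block, probe set means, protein-coding genes alone and leaving out each array. The labels give no dates or batches. The p-values rest on the spread between these cultures, moderated by the spread over all genes except in the fit without moderation.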

Additional observations from a re-analysis of the deposited data

How the results depend on the processing

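The direction of TLR1, TLR2, TLR6, TLR7 and TLR10 was kept in each of the settings that gave them a value. Variance models, the block, the dim-gene filter, protein-coding genes alone and probe set means leave the difference of a receptor unchanged by construction. Quantile normalization, centring and leaving out an array were the settings that could turn a sign. A filter that keeps genes above the median level leaves out the 6 receptors other than TLR1, TLR2, TLR6 and TLR9. TLR2 passed with a variance trend and robust estimation, at 1.11 with an adjusted p of 0.0135, and in no other setting. The count of genes past an adjusted p under 0.05, 0 by default, was 74 with a variance trend, 3 with the dim-gene filter and 1 without moderation. Leaving out each array in turn gave 0 such genes each time, 1450 to 1910 genes at an unadjusted p under 0.05, 1 to 3 receptors at that threshold (1 without GSK621 replicate 2), a TLR2 difference of 1.03 to 1.19 and a receptor median of 0.0913 to 0.17. Signs turned only where an array was left out. Without replicate 1 of rapamycin then GSK621, TLR8 came to −0.0650, IFIT1 to 0.0634 and IRF5 to −0.0333. Without replicate 2 of that group, CD14 came to 0.0316, IRF3 to 0.0289, IRF7 to −0.0726, LY96 to −0.0958, MYD88 to −0.0399, SARM1 to 0.20 and TIRAP to −0.0983. Without GSK621 replicate 1, TLR4 came to 0.10, TLR9 to −0.0678, MYD88 to −0.0322, RELA to 0.0710, TICAM1 to −0.11 and TIRAP to −0.0590. Without GSK621 replicate 2, TLR3 came to 0.14, TLR5 to −0.11 and IRF3 to 0.11. The 4 fits ran from −0.815 to 0.14 for TLR3, −0.14 to 0.10 for TLR4, −0.11 to 0.60 for TLR5, −0.0650 to 0.14 for TLR8 and −0.0678 to 0.27 for TLR9. The other ends were −0.29 for CD14, −0.59 for IFIT1, −0.19 for IRF3, 0.16 for IRF5, 0.30 for IRF7, 0.35 for LY96, 0.0867 for MYD88, −0.13 for RELA, −0.26 for SARM1, 0.32 for TICAM1 and 0.12 for TIRAP. A lone array was taken to vary like the other group, and the cause was not tested. Shared replicate numbers are a number only in the labels, and same-numbered arrays deviated with a correlation of 0.0923 across genes. With the replicate number as a block, the TLR2 difference stays at 1.11 by design, and its adjusted p came to 0.437 (limma). In that fit 2168 genes and 2 receptors had an unadjusted p under 0.05, and 0 genes had an adjusted p under 0.05. Signal over background was not at hand, so dim receptors remain uncertain.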
